A study of Phyllostachys violascens with 16 samples.

Results

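Microtubules and actin filaments are the main cytoskeletal polymers of plant cells, and 211 of the 50936 genes in the table carry a description that names one of their proteins. The genes were taken by their description: tubulin, microtubule-associated, actin-depolymerizing, profilin, villin or formin-like anywhere in it, or actin at its start, with kinesins and autophagy proteins left out. They fall into 93 microtubule genes and 118 actin genes. A mean of at least 1 FPKM over all libraries, the limit for testing, was reached by 136 of them (63 microtubule and 73 actin genes), and 25 had no count in any library. FPKM scales fragments by transcript length and library size, so levels of different genes can be set side by side. Just below the limit lay a gamma-tubulin complex component 4 gene (PH02Gene30087, 0.971 FPKM) and formin-like protein 14 (PH02Gene25740, 0.984), and just above it actin-related protein 5 (PH02Gene28748, 1.05) and another component 4 gene (PH02Gene30089, 1.09).

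Lei bamboo (Phyllostachys violascens) is grown for its edible shoots, and RNA came from the middle of shoots harvested young. All groups share the same material, shoots about 30 to 40 cm tall, and the same 4 °C protocol label. Stored shoots were kept in polyethylene bags, 30 to a replicate. The 4 groups are day 0 (0d) and 2, 6 and 20 days of storage (2d, 6d and 20d), with 4 biological replicates each, and each library pools segments of 6 shoots. No group was stored at another temperature or humidity, so cold, humidity, time since harvest and packing cannot be told apart. The p-values measure the spread between these pooled libraries. In whole tissue, fewer cells of a type and less RNA per cell cannot be told apart either.

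Microtubules are hollow polymers of alpha- and beta-tubulin that gamma-tubulin complexes start and associated proteins bundle, stabilise or track. In growing plant cells they guide the laying down of cellulose, and they build the spindle and the new cell plate in dividing ones. Actin filaments are started by formins and the ARP2/3 complex, fed with monomers by profilin, severed by actin-depolymerizing factors and bundled by villins, and they carry the traffic that feeds cell expansion. Names below are those of the best database hits in the deposited table. They tell the closest described protein, mostly of another grass, and not a function shown in bamboo.

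Libraries held 51711694 to 64859188 counts. Replicates lay close together: over the 65 of these genes with a mean of at least 10 FPKM the median coefficient of variation was between 3.25% and 4.68% at the 4 times. A gene was called when its edgeR adjusted p was below 0.05 and its log2 change at least 1 in size. The terms rose and fell are used below of called genes only. Log2 changes come from counts scaled by TMM, which sets the typical gene to no change. FPKM scales by the library total instead. On that total-count scale the median of all genes moved by -0.26 (log2) from 0d to 2d, by -0.21 to 6d and by -0.30 to 20d, so a gene with a log2 change of 0 has a somewhat lower FPKM after storage. Levels below are FPKM, as mean ± SD over n = 4 libraries.

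The summed transcript level of both filament systems was highest at 0d, and that of the microtubule genes was lowest at 20d. The 211 genes took 0.857% to 0.874% of all counts at 0d, 0.535% to 0.543% at 2d, 0.551% to 0.556% at 6d and 0.4553% to 0.4602% at 20d. The summed FPKM of the microtubule genes went from 1890 at 0d to 1146 at 2d, then 1094 at 6d and 688 at 20d. Relative to the typical gene, on the TMM scale, the sum at 20d was 45.5% of that at 0d. The actin genes summed to 2960, 1960, 2065 and 2020 FPKM, and on the TMM scale their sum at 20d was 85.3% of that at 0d. These sums rest mostly on the more abundant genes of each role, and not all of those are given below. Actin PH02Gene06858, for one, held 13.5% of the actin isoform sum at 0d. PH02Gene38071 held 10.4% of the beta-tubulin sum. Both are named here after their values were seen.

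**Figure D1:**
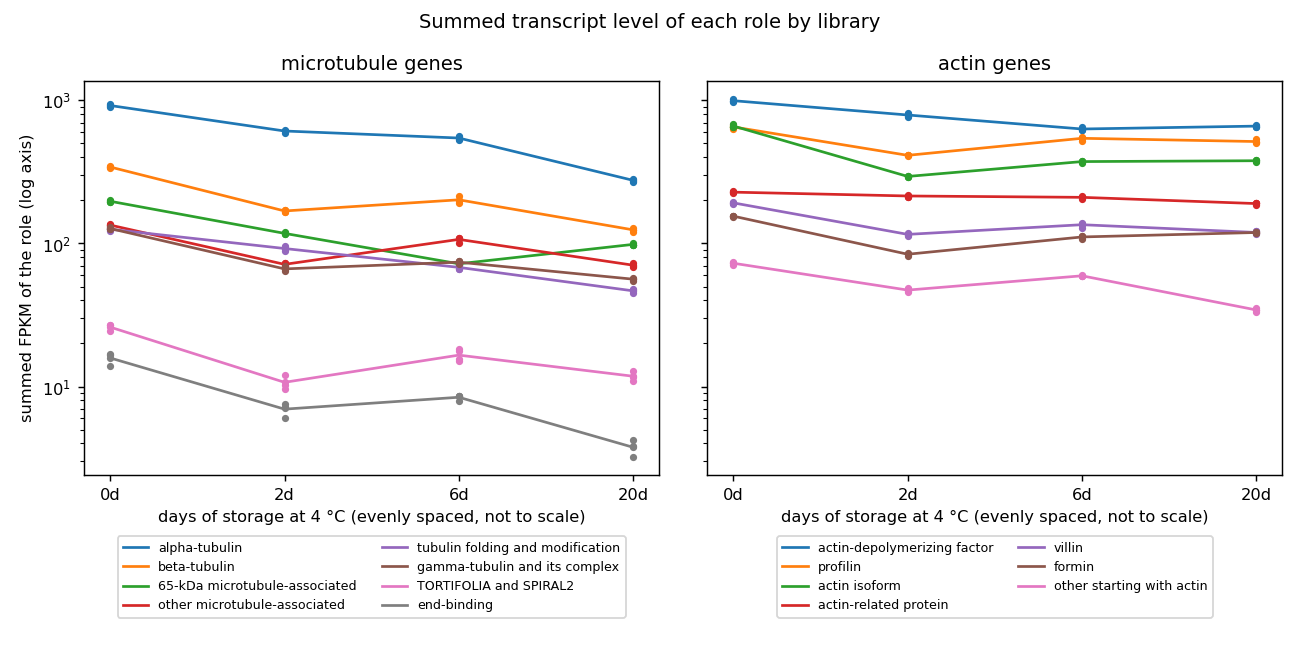
Summed FPKM (log axis) of each role at 0, 2, 6 and 20 days of storage, microtubule genes on the left and actin genes on the right. Dots are the 4 libraries of a time and lines join their means. Alpha-tubulin went from 921 to 276 FPKM, while the actin-related proteins stayed between 190.1 and 228 FPKM in the means.

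At 2d, 8 of the 63 tested microtubule genes had risen and 20 had fallen, and 5 of the 73 tested actin genes had risen and 23 had fallen. Among all 24944 tested genes 31.1% were called in that comparison, 13.1% higher and 18.1% lower, against 44.4% of the microtubule and 38.4% of the actin genes. The median log2 change was -0.51 for the microtubule genes and -0.54 for the actin genes, and near 0 for all genes tested. At 6d, 9 microtubule genes were higher and 20 lower, and 5 actin genes were higher and 25 lower, beside a background of 38.4% called, 16.8% higher and 21.6% lower. The medians were -0.41 and -0.21. At 20d, 7 microtubule genes were higher and 31 lower (median -0.97), and 6 actin genes were higher and 20 lower (median -0.21). The background at 20d was 44% called, 19.5% higher and 24.5% lower, so the share of actin genes that had fallen, 27.4%, lay near it. That of the microtubule genes was 49.2%. The difference between the families was not tested.

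**Figure D2:**
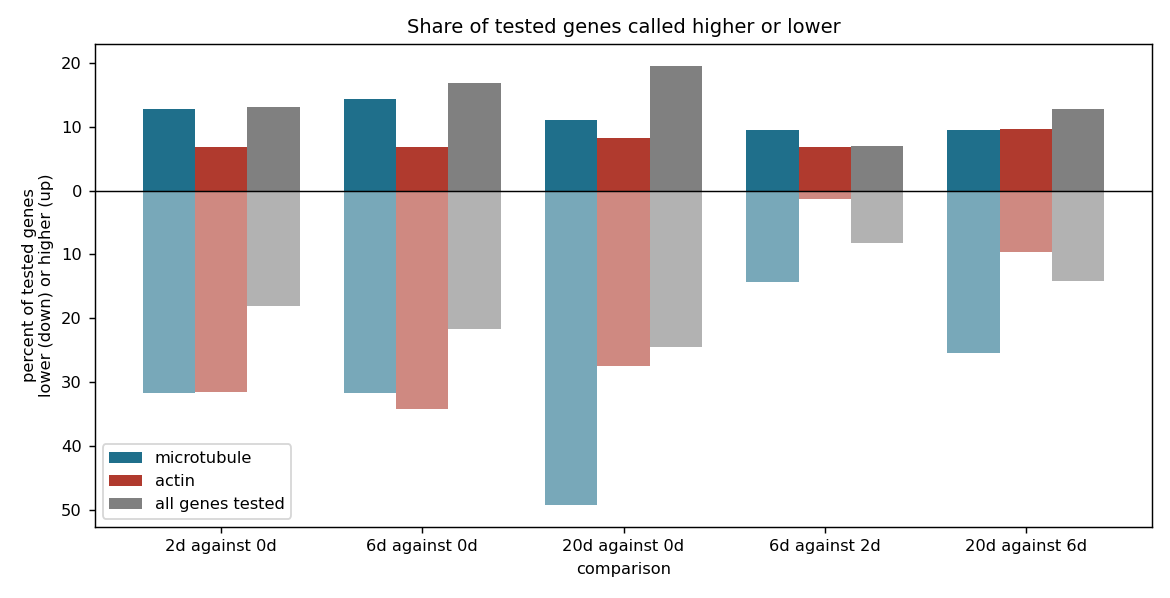
Percent of tested genes called higher (above the line) and lower (below it, pale bars) in 5 comparisons, for 63 microtubule genes, 73 actin genes and all 24944 tested genes. At 20d against 0d 49.2% of the microtubule genes were lower, against 24.5% of all genes.

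Over the 4 times together, 46 microtubule genes (73%) and 42 actin genes (57.5%) were called by the F test, beside 64.6% of all genes. On the TMM scale 37 of the 63 microtubule genes (58.7%) had their highest mean at 0d, as had 35 of the 73 actin genes (47.9%) and 32.9% of all tested genes. The lowest mean came at 20d for 30 microtubule genes (47.6%) and 20 actin genes (27.4%), beside 29.8% of all genes. For 23 actin genes (31.5%) it came at 2d, where 20% of all genes had theirs. The direction of calls over all genes depended on the scale: 42% of the calls at 2d were upward by TMM, 28.5% by total count and 51.2% by quantile scaling. For the members the split at 2d was 8 up and 20 down for microtubule genes by TMM, 6 and 23 by total count, and 9 and 20 by quantile scaling, and for actin genes 5 and 23, 2 and 28, and 5 and 23. At 6d the microtubule split was 8 and 20 by total count and 10 and 21 by quantile scaling, and the actin split 4 and 27, and 11 and 23. At 20d these were 4 and 35, and 11 and 32 for microtubule genes, and 4 and 27, and 9 and 21 for actin genes.

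**Figure D3:**
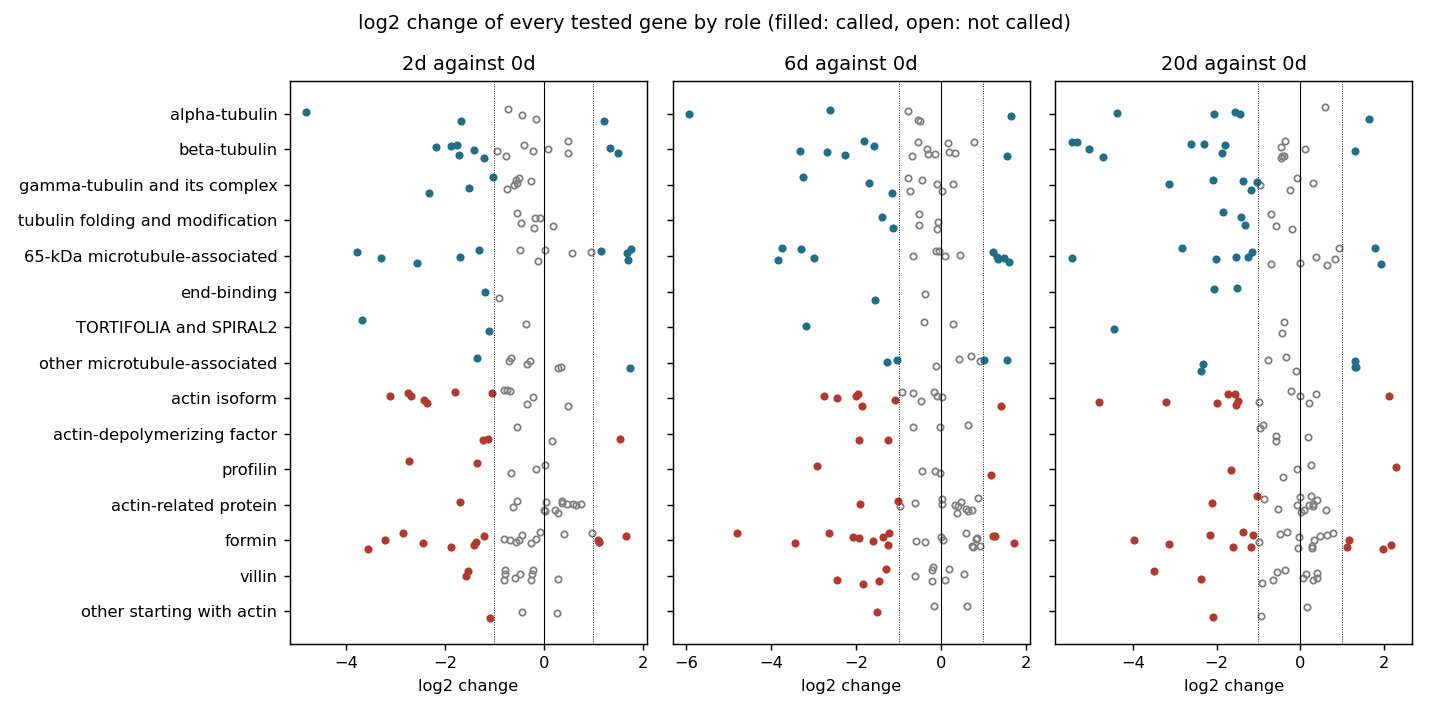
Log2 change of each of the 136 tested genes at 2d, 6d and 20d against 0d, by role. Filled dots are called genes (blue microtubule, red actin), open dots are not, and dotted lines mark a log2 change of 1 in either direction. Falls reach -5.93 in alpha-tubulin at 6d, while the actin-related proteins lie mostly between the dotted lines.

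Alpha-tubulin, which with beta-tubulin forms the building block of the microtubule, was measured by 6 genes, all above the test limit. Their sum was 921 ± 17.3 FPKM at 0d, then 611 ± 13.5 at 2d, 546 ± 12.1 at 6d and 276 ± 5.01 at 20d. At 20d 4 of the 6 had fallen and 1 had risen (66.7% and 16.7%, beside 24.5% and 19.5% of all tested genes). The alpha-4 chain (PH02Gene46714), the most abundant of all tubulins, had 469.6, 479, 472 and 491 FPKM at 0d, 300.3, 304, 289 and 296 FPKM at 2d, 241, 240.2, 249.9 and 256 FPKM at 6d, and 141, 146, 142 and 138 FPKM at 20d. The 4 times did not overlap, and each was lower than the one before. Only its change at 20d was large enough to be called (log2 change -1.44, SE 0.02, edgeR adjusted p = 6.58e-26), with -0.44 at 2d and -0.78 at 6d (-1.06 and called at 6d by quantile scaling).

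The alpha-1 chain (PH02Gene12444) had 300.0, 310.1, 301 and 315 FPKM at 0d, 230.1, 235, 226 and 233 FPKM at 2d, 195, 185, 195 and 198 FPKM at 6d, and 56.4, 61.9, 58.6 and 57.7 FPKM at 20d. Its levels at 2d and 6d were not far below 0d (log2 changes -0.16 and -0.49), and its fall came between 6d and 20d (log2 change -1.58, SE 0.03, edgeR adjusted p = 8.69e-25). Against 0d the change at 20d was -2.07. The alpha-3 chain (PH02Gene37852) went the other way, with 20.2, 19.1, 18.8 and 20.2 FPKM at 0d, 40.2, 39.7, 36.0 and 38.2 FPKM at 2d, 54.3, 55.1, 53.2 and 54.7 FPKM at 6d, and 50.2, 47.8, 51.1 and 47.9 FPKM at 20d. All stored libraries lay above all libraries of 0d. It rose at 2d (log2 change 1.23, SE 0.04, edgeR adjusted p = 1.12e-19), at 6d (1.65) and at 20d (1.65). The rise at 2d was 0.98, and so not called, with total-count scaling. Its share of the alpha-tubulin sum went from 2.12% at 0d to 17.8% at 20d, while that of alpha-1 went from 33.3% to 21.2% and that of alpha-4 was 51.9% and 51.3%.

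The alpha-2 chain (PH02Gene36495) was nearly lost within the first 2 days. It read 30.1, 30.5, 30.5 and 31.5 FPKM at 0d, 0.819, 0.738, 1.11 and 0.996 FPKM at 2d, 0.407, 0.232, 0.753 and 0.36 FPKM at 6d, and 1.15, 1.15, 1.06 and 1.33 FPKM at 20d. The libraries of 0d stood far above all others, and the change was -4.80 at 2d, then -5.93 at 6d and -4.40 at 20d (SE 0.19, edgeR adjusted p = 4.37e-12 at 20d). Its step from 2d to 6d was called (-1.13), but not without the second library of 6d (-0.93). The other alpha-tubulins complete the class and are named for that, after their values were seen. A gene described only as tubulin (PH02Gene17884), which shares its KEGG entry with the alpha chains, fell from 84.5 ± 2.75 to 22.9 ± 0.304 FPKM at 20d (log2 change -1.57). A second alpha-2 gene (PH02Gene11745) fell from 2.12 ± 0.226 to 0.301 ± 0.0963 FPKM at 6d and was back at 2.57 ± 0.322 at 20d (20d against 6d log2 change 3.21, SE 0.23, edgeR adjusted p = 3.58e-12).

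**Figure D4:**
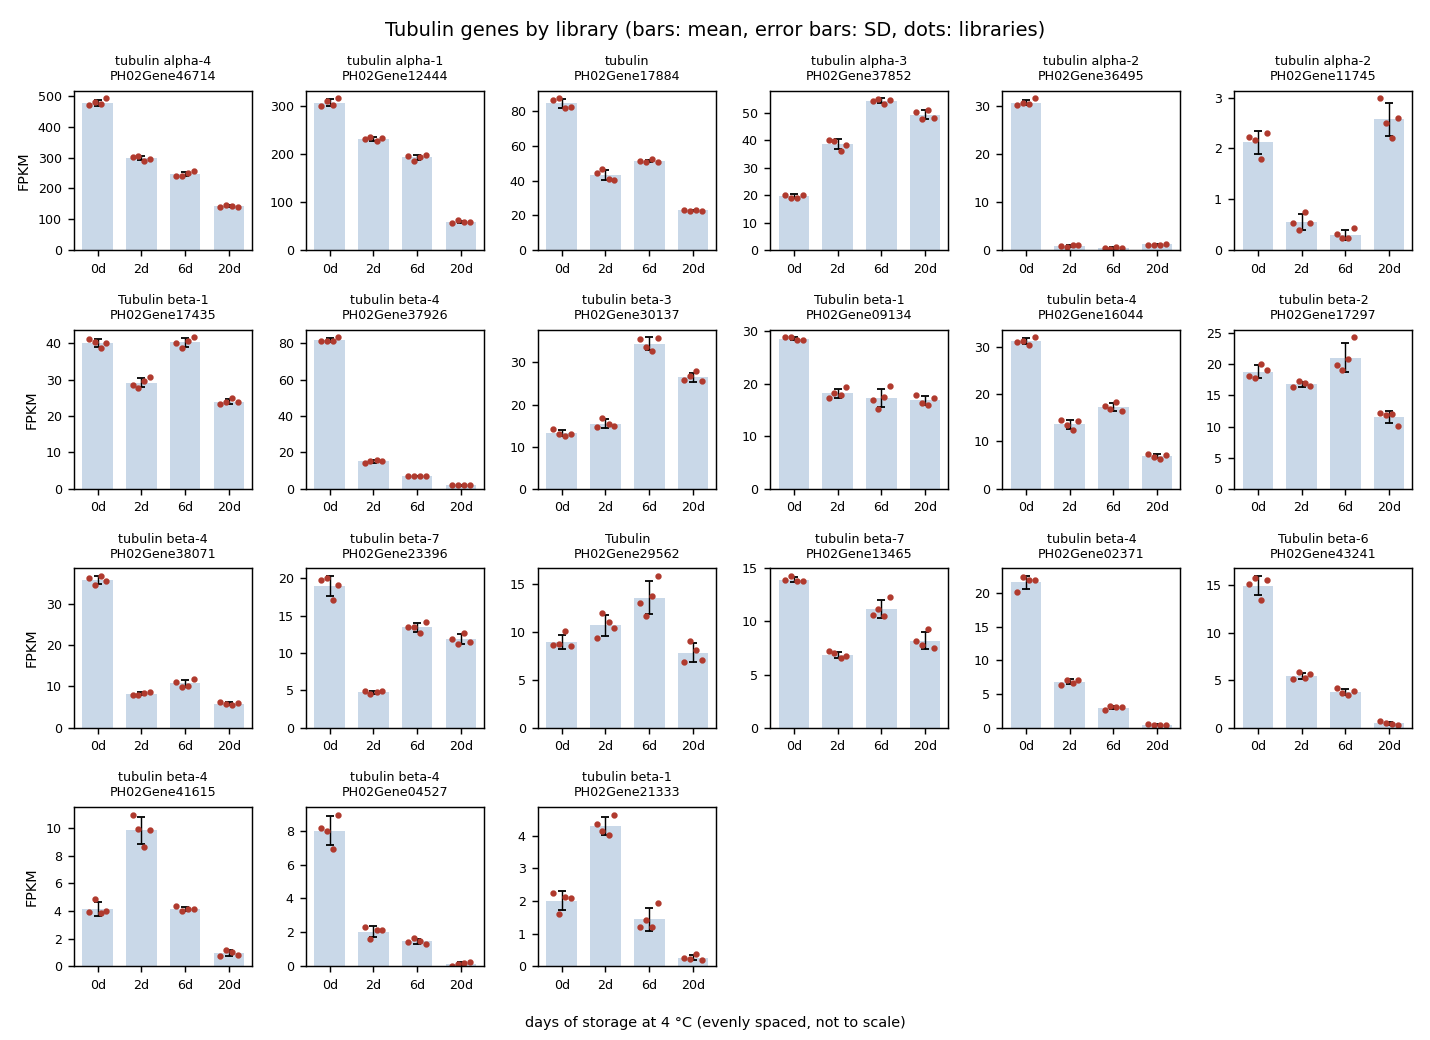
FPKM of the 6 alpha-tubulin and 15 beta-tubulin genes that were tested, at 0, 2, 6 and 20 days. Bars are means, error bars SD and dots the 4 libraries, with a scale of its own in each panel. Most panels step down from 0d, while alpha-3 and beta-3 climb and the beta-4 gene PH02Gene41615 is highest at 2d.

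Beta-tubulin had 21 genes, of which 15 were tested and 3 had no count. Their sum went from 342 ± 3.24 FPKM at 0d to 169 ± 3.02 at 2d, was 202 ± 9.71 at 6d and ended at 125 ± 2.96. Of the 15, 2 rose and 6 fell at 2d, 1 rose and 5 fell at 6d, and 1 rose and 8 fell at 20d. Risers were 13.3%, 6.67% and 6.67%, beside 13.1%, 16.8% and 19.5% of all tested genes. Fallers were 40%, 33.3% and 53.3%, beside 18.1%, 21.6% and 24.5%. A beta-4 chain (PH02Gene37926) led the class at 0d: it had 81.2, 81.0, 81.3 and 83.3 FPKM at 0d, 14.0, 15.3, 15.9 and 15.1 FPKM at 2d, 7.29, 7.23, 7.20 and 7.21 FPKM at 6d, and 2.18, 1.86, 1.86 and 2.01 FPKM at 20d. No library of one time overlapped those of another. The log2 change was -2.19 at 2d and -3.32 at 6d, and at 20d it reached -5.06 (SE 0.05, edgeR adjusted p = 2.80e-30). Its share of the beta-tubulin sum was 23.9% at 0d and 1.59% at 20d.

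Other beta-tubulins fell from lower levels. A second beta-4 gene (PH02Gene02371) fell from 21.6 ± 0.963 FPKM at 0d to 6.79 ± 0.37, 2.96 ± 0.247 and 0.422 ± 0.0606 (20d log2 change -5.35, SE 0.10, edgeR adjusted p = 4.82e-25). The beta-6 chain (PH02Gene43241) went from 14.9 ± 1.03 to 0.454 ± 0.157 FPKM (20d log2 change -4.71, SE 0.15, edgeR adjusted p = 6.76e-20). A further beta-4 gene (PH02Gene04527) had the deepest fall of the class at 20d, -5.47 with an SE of 0.38, from 8.003 ± 0.849 FPKM to 0.139 ± 0.103, with a value of 0 in the first library of 20d. In each of these genes all libraries of 20d lay below all of the earlier times.

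The beta-3 chain (PH02Gene30137) climbed late. Its libraries had 14.3, 13.0, 12.6 and 13.0 FPKM at 0d, 14.6, 16.9, 15.5 and 15.0 FPKM at 2d, 35.5, 33.8, 32.7 and 35.9 FPKM at 6d, and 25.8, 26.9, 27.9 and 25.5 FPKM at 20d. Values at 6d and 20d lay above all those of 0d and 2d. It rose at 6d (log2 change 1.56, SE 0.05, edgeR adjusted p = 4.75e-19) and at 20d (1.32, or 0.998 and not called with total-count scaling), but not at 2d (0.48). Beta-7 (PH02Gene23396) dipped and came back, from 19 ± 1.33 FPKM at 0d to 4.75 ± 0.192 at 2d and 13.5 ± 0.61 at 6d (2d -1.75, 6d against 2d 1.43, both called). One more beta-4 gene (PH02Gene41615) had 3.89, 4.88, 3.81 and 3.97 FPKM at 0d, 10.95, 9.90, 8.58 and 9.81 FPKM at 2d, 4.32, 3.96, 4.11 and 4.11 FPKM at 6d, and 0.708, 1.20, 1.02 and 0.846 FPKM at 20d. It was highest in all libraries of 2d and lowest in all of 20d, with log2 changes of 1.496 and -1.80, both called. The most abundant beta-tubulin over all libraries, a beta-1 chain (PH02Gene17435), passed no limit on size: it had 40.1 ± 1.10, 29.1 ± 1.30, 40.2 ± 1.21 and 23.9 ± 0.673 FPKM, with changes of -0.21, 0.18 and -0.43, of which that at 6d was below 0 by total count (-0.01) and quantile scaling (-0.10).

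Gamma-tubulin and the proteins of its ring complex, from which microtubules start, had 12 genes and 9 tested ones. Of these 3 fell at 2d, then 3 at 6d and 5 at 20d, with none called higher in edgeR or DESeq2. With no limit on size, 0, 1 and 1 were higher at an unadjusted p below 0.05. Lower calls made up 33.3%, 33.3% and 55.6% of the 9, beside 18.1%, 21.6% and 24.5% of all tested genes. Of all tested genes 13.1%, 16.8% and 19.5% were called higher. The summed level was 127 ± 1.80 FPKM at 0d and 56.3 ± 1.05 at 20d. Gamma-tubulin 2 (PH02Gene30076) had 35.6, 35.7, 35.6 and 36.2 FPKM at 0d, 18.7, 20.8, 20.4 and 21.1 FPKM at 2d, 23.6, 22.3, 24.0 and 22.7 FPKM at 6d, and 11.6, 10.98, 10.9 and 11.3 FPKM at 20d. The libraries of 0d were the highest and those of 20d the lowest, and its fall at 20d was called (log2 change -1.36, SE 0.04, edgeR adjusted p = 3.48e-20). A second gamma-2 gene (PH02Gene19502) fell at 2d, from 8.80 ± 0.979 to 2.60 ± 0.422 FPKM (log2 change -1.51, SE 0.11, edgeR adjusted p = 2.04e-12), and its change at 20d, -0.97, missed the limit by little: it was -1.03 without the fourth library of 0d, -1.01 without the first of 20d, -1.001 in DESeq2, -1.29 by total count and -1.08 in limma on log2(FPKM + 1). Complex component 2 (PH02Gene24457) went from 18.0 ± 1.14 FPKM at 0d to 10.4 ± 1.30, 4.92 ± 0.293 and 3.39 ± 0.475, and fell at 6d (-1.70) and 20d (-2.09). On scaffold 24 it lies 12447 bp from another component 2 gene (PH02Gene24456) on the same strand, which also fell at 6d (-1.16) and 20d (-1.04). That neighbour was named after its values were seen.

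Tubulin must be folded by a set of cofactors before it can assemble, and its tail can be modified by ligases. Of 14 such genes 6 were tested: 2 fell at 6d and 3 at 20d (33.3% and 50%, beside 21.6% and 24.5% of all tested genes). Cofactor A (PH02Gene10962), which holds newly folded beta-tubulin, had 59.4, 60.2, 56.6 and 59.6 FPKM at 0d, 47.4, 44.6, 38.5 and 43.3 FPKM at 2d, 22.1, 25.8, 22.9 and 24.7 FPKM at 6d, and 13.5, 13.2, 12.1 and 13.7 FPKM at 20d. Its libraries stepped down at each time without overlap. It fell at 6d (log2 change -1.13, SE 0.06, edgeR adjusted p = 1.59e-14) and at 20d (-1.85). A tubulin--tyrosine ligase-like protein 12 gene (PH02Gene42399) fell at 6d (-1.39, from 7.86 ± 0.285 to 2.66 ± 0.253 FPKM) and stayed at 2.53 ± 0.28 at 20d. Of the 4 other tested genes, cofactors B, D and E, 1 cofactor D gene fell at 20d, and their changes ran from -1.42 to -0.20.

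The 65-kDa microtubule-associated proteins (MAP65) tie neighbouring microtubules into bundles. Of 18 genes 14 were tested. At 2d 4 rose and 5 fell, at 6d 5 rose and 4 fell, and at 20d 2 rose and 6 fell. Their medians were -0.04, 0.02 and -0.35. Risers were 28.6%, 35.7% and 14.3% of the 14, beside 13.1%, 16.8% and 19.5% of all tested genes. Fallers were 35.7%, 28.6% and 42.9%, beside 18.1%, 21.6% and 24.5%. The sum, 197 ± 3.04 FPKM at 0d, was lowest at 6d (72.1 ± 1.43) and 98.5 ± 1.55 at 20d. The most abundant gene of the class, MAP65-7 (PH02Gene22090), took the same course. It had 85.0, 85.7, 85.0 and 83.5 FPKM at 0d, 53.1, 50.6, 50.8 and 50.6 FPKM at 2d, 9.19, 9.51, 10.2 and 8.87 FPKM at 6d, and 28.7, 29.0, 28.6 and 28.1 FPKM at 20d. Its libraries of 6d lay below all others, and those of 20d between 6d and 2d. The change was -0.47 at 2d, then -2.99 at 6d (SE 0.04, edgeR adjusted p = 2.51e-28), and the gain from 6d to 20d was 1.74.

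A second MAP65-7 gene (PH02Gene39808) fell sooner. It had 37.7, 40.3, 37.1 and 38.8 FPKM at 0d, 5.34, 4.98, 5.89 and 5.63 FPKM at 2d, 3.23, 3.65, 3.28 and 3.74 FPKM at 6d, and 14.8, 13.1, 13.7 and 14.5 FPKM at 20d. All stored libraries were below those of 0d, and those of 20d were above those of 2d and 6d (2d log2 change -2.56, SE 0.06, edgeR adjusted p = 1.71e-22, 20d against 6d 2.15). MAP65-8 (PH02Gene45477) went from 14.4 ± 0.689 FPKM at 0d to 1.24 ± 0.123 and 0.937 ± 0.24, with 3.99 ± 0.331 at 20d (20d against 6d log2 change 2.22, SE 0.13, edgeR adjusted p = 3.41e-14). MAP65-1 (PH02Gene18145) did not come back: it went from 15.1 ± 0.617 to 0.926 ± 0.0291, 0.932 ± 0.102 and 0.273 ± 0.176 FPKM (20d log2 change -5.46, SE 0.25, edgeR adjusted p = 8.07e-13).

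Among the risers, MAP65-3 (PH02Gene01427), whose Arabidopsis namesake bundles microtubules at the forming cell plate, had 2.96, 2.80, 2.72 and 3.11 FPKM at 0d, 8.06, 8.62, 7.23 and 7.96 FPKM at 2d, 6.87, 7.44, 6.88 and 7.47 FPKM at 6d, and 8.44, 8.99, 9.74 and 8.83 FPKM at 20d. Every stored library was above every one of 0d (2d 1.71, 6d 1.48, 20d log2 change 1.95, SE 0.07, edgeR adjusted p = 1.59e-18). A MAP65-6 gene (PH02Gene34993) rose first and then was nearly lost, with 1.43 ± 0.227 FPKM at 0d, 4.08 ± 0.158 at 2d, then 3.17 ± 0.164 at 6d and 0.277 ± 0.0459 at 20d (20d against 6d log2 change -3.34, SE 0.15, edgeR adjusted p = 2.25e-16). A MAP65-1-like gene (PH02Gene27598) rose at 2d (1.17, or 0.91 with total-count scaling) and 6d (1.59), from 1.89 ± 0.238 to 5.04 ± 0.212 FPKM.

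Among the remaining microtubule proteins MAP70-1 (PH02Gene43296), a plant-specific protein that lies along cortical microtubules in Arabidopsis, was the most abundant. It had 58.2, 60.5, 60.6 and 60.5 FPKM at 0d, 18.8, 19.2, 20.3 and 20.9 FPKM at 2d, 25.9, 26.6, 26.6 and 25.2 FPKM at 6d, and 9.89, 9.96, 8.92 and 8.72 FPKM at 20d. The libraries of 0d were the highest and those of 20d the lowest, with those of 6d above those of 2d. It fell at 2d (-1.35), 6d (-1.03, or -0.96 with no filter on low values) and 20d (log2 change -2.36, SE 0.05, edgeR adjusted p = 2.12e-24). The AIR9 genes, named for an Arabidopsis protein that marks the site of cell division, parted: PH02Gene09629 rose from 9.22 ± 0.369 to 18.7 ± 0.954 FPKM at 20d (log2 change 1.33, SE 0.05, edgeR adjusted p = 3.23e-19), and PH02Gene08268 fell from 6.39 ± 0.602 to 1.03 ± 0.0652 (log2 change -2.32, SE 0.09, edgeR adjusted p = 1.23e-17). A gene described as a microtubule-associated serine/threonine kinase (PH02Gene19738), a name from an animal family, rose at 2d from 1.13 ± 0.155 to 3.16 ± 0.169 FPKM (1.74). Its rise at 20d (1.31) was 0.99 and not called with total-count scaling.

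End-binding proteins ride on the growing tips of microtubules, and both tested RP/EB family member 1A genes fell. Of these 2 genes 1 fell at 2d, 1 at 6d and 2 at 20d, beside 18.1%, 21.6% and 24.5% of all tested genes. PH02Gene33735 had 8.87 ± 1.23, 4.00 ± 0.713, 6.03 ± 0.318 and 1.71 ± 0.243 FPKM and fell at 20d (log2 change -2.06, SE 0.15, edgeR adjusted p = 1.48e-12). Its -0.90 at 2d was called by total count (-1.15) and with the stricter filter (-1.02). PH02Gene00506 fell at 2d, from 6.16 ± 0.496 to 2.26 ± 0.334 FPKM (-1.19, or -0.83 and not called with quantile scaling), and stayed there. SPIRAL2 and TORTIFOLIA1 are names given in Arabidopsis to a microtubule protein whose loss twists growing organs. Of 3 tested genes so named 2 fell at 2d and 1 each at 6d and 20d. These are 66.7%, 33.3% and 33.3%, beside 18.1%, 21.6% and 24.5% of all tested genes. The lasting fall was that of a SPIRAL2-like gene named after its values were seen (PH02Gene43515), from 5.08 ± 0.166 FPKM at 0d to 0.33 ± 0.0934, 0.491 ± 0.0985 and 0.182 ± 0.0552 (20d log2 change -4.46, SE 0.21, edgeR adjusted p = 4.24e-16). The other SPIRAL2-like gene, PH02Gene33459, dipped in all libraries of 2d and was back at 6d, with 7.82 ± 0.209, 3.05 ± 0.393, 8.41 ± 0.57 and 4.68 ± 0.36 FPKM (2d -1.10, 6d against 2d 1.39, both called). TORTIFOLIA1 (PH02Gene29724) was not called at any time (-0.35, -0.41 and -0.40 by TMM, but 0.03, 0.01 and 0.07 by quantile scaling).

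Actin itself had 16 genes and 13 tested ones, with a sum of 662 ± 15.5 FPKM at 0d, then 294 ± 2.34 at 2d, 374 ± 5.76 at 6d and 379 ± 6.22 at 20d. At 2d 7 of the 13 had fallen and none had risen in edgeR or DESeq2. With no limit on size, 1 was higher and 12 were lower at an unadjusted p below 0.05. At 6d 1 had risen and 6 had fallen, and at 20d 1 and 7. Fallers were 53.8%, 46.2% and 53.8% at 2d, 6d and 20d, beside 18.1%, 21.6% and 24.5% of all tested genes. Risers were 0% at 2d and 7.69% at 6d and at 20d, beside 13.1%, 16.8% and 19.5%. An actin-3 gene (PH02Gene08317) was the most abundant at 0d and fell at every later time. It had 120.1, 118, 123 and 126 FPKM at 0d, 18.3, 19.8, 20.3 and 21.0 FPKM at 2d, 19.8, 20.3, 19.7 and 19.01 FPKM at 6d, and 11.3, 10.3, 10.1 and 10.95 FPKM at 20d. The libraries of 0d stood apart from all others, those of 2d and 6d overlapped and those of 20d were lowest. The changes were -2.36 at 2d (SE 0.04, edgeR adjusted p = 7.21e-25), -2.45 at 6d and -3.20 at 20d.

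Another actin-3 gene (PH02Gene05986), the most abundant over all libraries, was not called at any time. It had 96.8 ± 2.18, 69.5 ± 1.57, 80.0 ± 2.42 and 90.5 ± 3.79 FPKM, with log2 changes of -0.23, -0.10 and 0.22. At 20d its direction turns with the scale, since its mean FPKM was below that of 0d. The gene described as actin of Phyllostachys edulis (PH02Gene38192) was the only one of the 13 called higher at 6d or 20d. Its libraries had 20.2, 19.7, 20.3 and 20.5 FPKM at 0d, 23.8, 24.5, 23.7 and 23.8 FPKM at 2d, 48.5, 49.8, 46.6 and 45.9 FPKM at 6d, and 69.7, 72.7, 70.4 and 69.8 FPKM at 20d. Each time lay above the one before without overlap. It rose at 6d (log2 change 1.42, SE 0.03, edgeR adjusted p = 1.04e-22) and 20d (log2 change 2.12, SE 0.03, edgeR adjusted p = 1.61e-26). At 20d the rising gene and PH02Gene05986 held 70.7 and 90.5 FPKM of the actin sum, and PH02Gene08317 held 10.7.

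Actin-2 (PH02Gene44301) was low for a short time. It had 35.8, 37.1, 36.4 and 38.3 FPKM at 0d, 5.90, 5.81, 5.95 and 5.58 FPKM at 2d, 29.4, 30.5, 29.8 and 26.7 FPKM at 6d, and 39.4, 38.4, 37.5 and 38.6 FPKM at 20d. All libraries of 2d lay far below the others, and those of 20d overlapped those of 0d. It fell at 2d (log2 change -2.42, SE 0.05, edgeR adjusted p = 1.06e-23) and rose again by 6d (6d against 2d log2 change 2.25, SE 0.05, edgeR adjusted p = 3.23e-22). Further actin-3 genes fell: PH02Gene22348 went from 13.3 ± 0.389 to 1.29 ± 0.151, 1.75 ± 0.169 and 0.379 ± 0.0625 FPKM (20d log2 change -4.81, SE 0.13, edgeR adjusted p = 1.12e-21). PH02Gene26458 had 23.0 ± 0.481, 9.42 ± 0.609, 14.7 ± 0.405 and 6.42 ± 0.312, with a change of -1.04 at 2d (-0.97 and not called with no filter on low values) and -1.53 at 20d. Actin genes can be alike in sequence, and how reads that match several genes were counted is not given in the sources used here. The split of the sum over single actins and tubulins is therefore less certain than the sum.

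**Figure D5:**
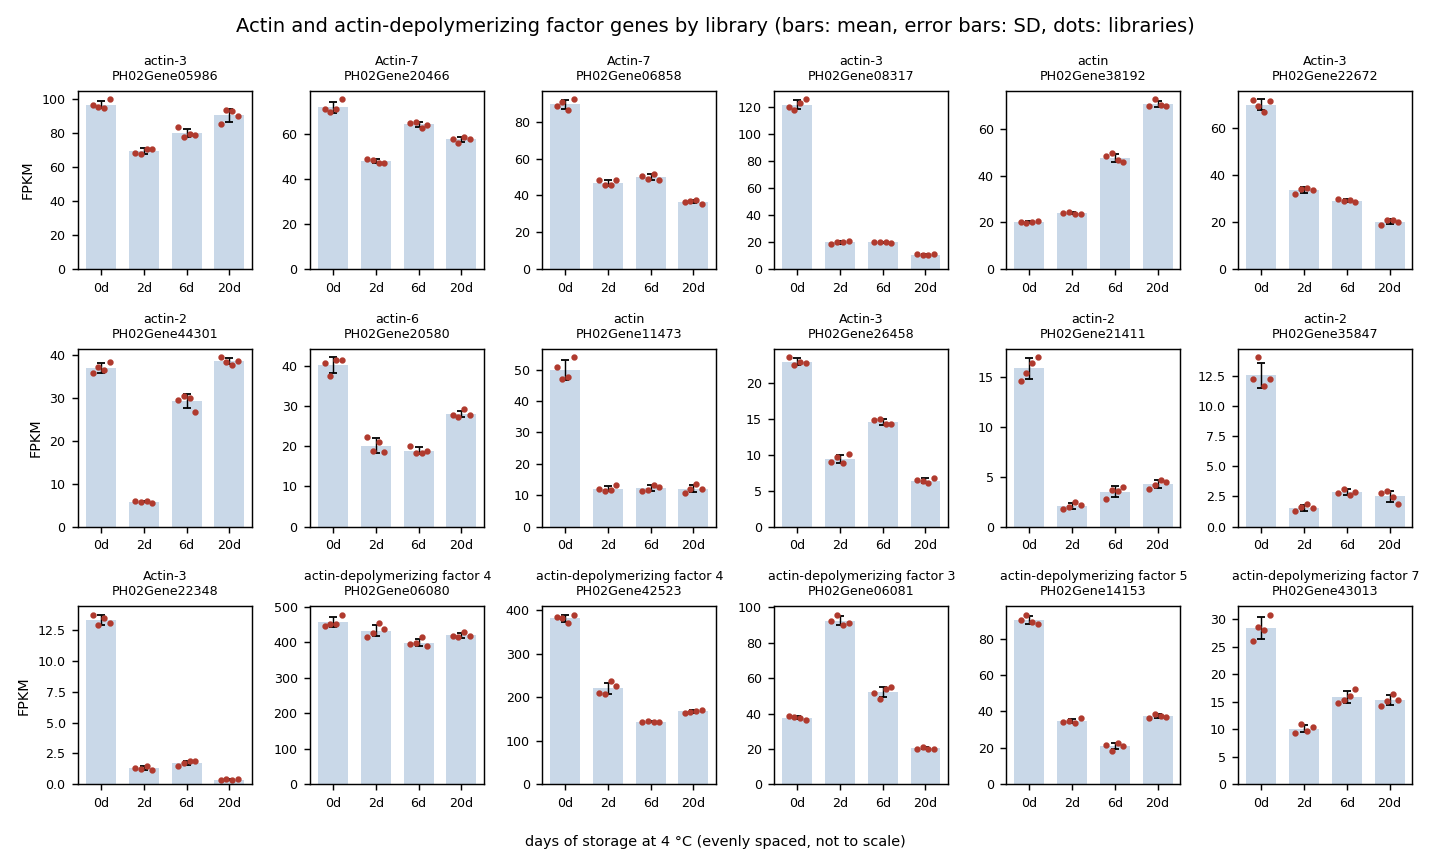
FPKM of the 13 actin and 5 actin-depolymerizing factor genes that were tested, at 0, 2, 6 and 20 days. Bars are means, error bars SD and dots the 4 libraries, with a scale of its own in each panel. Actin PH02Gene38192 climbs from 20.2 to 70.7 FPKM, actin-2 PH02Gene44301 dips at 2d, and factor 3 peaks at 2d.

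Actin-depolymerizing factors (ADF) sever filaments and free their subunits. They were the most abundant role in the actin family, at 996 ± 20.2 FPKM at 0d, then 791 ± 27.4 at 2d, 631 ± 11.2 at 6d and 662 ± 9.19 at 20d, but only 5 of 11 genes were tested. ADF4 (PH02Gene06080) had 447, 451, 451 and 478 FPKM at 0d, 414, 426, 453 and 438 FPKM at 2d, 395, 399, 413 and 389 FPKM at 6d, and 417, 414, 429.7 and 418 FPKM at 20d. Its libraries of 0d and 2d overlapped, and it was not called at any time. The TMM change was 0.17 at 2d and 0.19 at 20d, while its mean FPKM was below that of 0d at both, so its direction turns with the scale. A second ADF4 gene (PH02Gene42523), named after its values were seen to complete the class, fell at 6d, from 382 ± 7.84 to 143 ± 1.14 FPKM (-1.24).

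ADF3 (PH02Gene06081) is the neighbour of the first ADF4 gene, 22594 bp away on the same strand of scaffold 21. Its libraries had 38.7, 38.2, 37.5 and 36.5 FPKM at 0d, 92.5, 96.0, 89.9 and 91.3 FPKM at 2d, 51.5, 48.2, 53.6 and 55.2 FPKM at 6d, and 19.8, 21.1, 20.1 and 20.1 FPKM at 20d. All of 2d lay above all others, and all of 20d below. It rose at 2d (log2 change 1.54, SE 0.04, edgeR adjusted p = 2.52e-21) and fell from 6d to 20d (-1.22), with -0.58 at 20d against 0d. ADF5 (PH02Gene14153) fell at 2d (-1.13) and 6d (log2 change -1.94, SE 0.05, edgeR adjusted p = 2.3e-22), from 90.1 ± 2.19 to 34.7 ± 1.24 and 20.8 ± 1.69 FPKM. At 20d it stood at 37.4 ± 0.94 (20d against 6d 0.98, or 1.02 and called without the third library of 6d). ADF7 (PH02Gene43013) fell at 2d, from 28.3 ± 1.98 to 10.1 ± 0.685 FPKM (-1.24), and was at 15.3 ± 0.935 at 20d.

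Profilins bind actin monomers and pass them to the growing filament. All 5 genes were tested, and their sum was 653 ± 17.3 FPKM at 0d, then 413 ± 1.13 at 2d, 544 ± 15.3 at 6d and 516 ± 12.9 at 20d. Nearly all of it came from the LP04 type. The first LP04 gene (PH02Gene25552) had 319, 318, 322 and 318 FPKM at 0d, 236, 242, 245 and 235 FPKM at 2d, 274, 279, 289 and 276 FPKM at 6d, and 307, 309, 319 and 304 FPKM at 20d. Its libraries of 2d were the lowest, and those of 20d overlapped those of 0d. Its change at 20d was 0.27 by TMM, while its mean FPKM was lower than at 0d. A second abundant profilin gene (PH02Gene19469), named after its values were seen, did not keep pace. It held 48.4% of the profilin sum at 0d and 36.9% at 20d, while PH02Gene25552 held 48.9% and 60.1%. Profilin-7 (PH02Gene46045) was scarce and rose, with 2.32, 2.11, 1.72 and 1.98 FPKM at 0d, 1.38, 1.27, 2.01 and 2.24 FPKM at 2d, 3.55, 4.41, 4.23 and 4.19 FPKM at 6d, and 7.07, 9.99, 7.03 and 8.68 FPKM at 20d. The libraries of 0d and 2d overlapped, and those of 6d and of 20d lay above them (20d log2 change 2.30, SE 0.25, edgeR adjusted p = 3.8e-09). Its rise at 6d (1.18) was 0.99 and not called with total-count scaling, as was that from 6d to 20d (1.13, or 0.997). Profilin-A (PH02Gene41089) fell from 8.42 ± 0.555 FPKM at 0d to 1.06 ± 0.264, 0.946 ± 0.516 and 2.14 ± 0.295 (2d log2 change -2.72, SE 0.30, edgeR adjusted p = 1.32e-08). Its change at 20d (-1.65) was -0.92 and not called with quantile scaling.

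Formins start and lengthen actin filaments, and some plant members also bind microtubules. With 51 genes they were the largest class, but 9 had no count, 20 more stayed below a mean of 1 FPKM and 22 were tested. At 2d 4 rose and 8 fell, at 6d 3 rose and 9 fell, and at 20d 4 rose and 7 fell. Risers were 18.2%, 13.6% and 18.2% of the 22, beside 13.1%, 16.8% and 19.5% of all tested genes. Fallers were 36.4%, 40.9% and 31.8%, beside 18.1%, 21.6% and 24.5%. Formin-like protein 8 (PH02Gene11899) had 16.7, 16.2, 16.2 and 15.5 FPKM at 0d, 0.914, 1.07, 1.24 and 1.40 FPKM at 2d, 0.541, 0.353, 0.542 and 0.599 FPKM at 6d, and 1.53, 1.49, 1.54 and 1.36 FPKM at 20d. All stored libraries lay far below those of 0d. The change was -3.55 at 2d, -4.80 at 6d (SE 0.12, edgeR adjusted p = 1.40e-21) and -3.13 at 20d. Formin-like protein 15 (PH02Gene36817) fell at 6d and 20d, and by total count also at 2d (-1.05), from 6.81 ± 0.374 FPKM to 3.29 ± 0.509, 1.99 ± 0.272 and 0.342 ± 0.0475 (20d log2 change -3.98, SE 0.14, edgeR adjusted p = 3.62e-19).

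Formin-like protein 13 (PH02Gene13061) went down and then up. It had 11.8, 11.8, 12.2 and 11.7 FPKM at 0d, 3.86, 3.52, 3.89 and 3.75 FPKM at 2d, 7.82, 8.23, 8.06 and 8.45 FPKM at 6d, and 20.0, 21.2, 20.7 and 21.2 FPKM at 20d. The 4 times did not overlap, with 2d lowest and 20d highest. It fell at 2d (log2 change -1.41, SE 0.05, edgeR adjusted p = 1.37e-18) and rose at 20d (log2 change 1.12, SE 0.05, edgeR adjusted p = 1.79e-17). That rise was 0.80 with total-count scaling and 0.99 with a stricter filter on low values, and not called in either. Formin-like protein 7 (PH02Gene18342) had 6.66, 6.84, 7.14 and 6.00 FPKM at 0d, 12.02, 12.1, 11.98 and 12.2 FPKM at 2d, 13.9, 14.2, 14.4 and 14.1 FPKM at 6d, and 22.0, 21.4, 19.6 and 21.4 FPKM at 20d. Each time lay above the one before without overlap. It rose at 2d (1.11, or 0.86 with total-count scaling and 0.99 with the stricter filter, not called in either), 6d (1.26) and 20d (log2 change 1.98, SE 0.04, edgeR adjusted p = 3.45e-23). Formin-like protein 12 (PH02Gene36050) had 4.62 ± 0.18, 7.64 ± 0.43, 13.4 ± 0.603 and 8.44 ± 0.296 FPKM. It rose at 6d (log2 change 1.71, SE 0.04, edgeR adjusted p = 1.73e-21) and 20d (1.18, or 0.86 with total-count scaling), and its 0.98 at 2d was called without the first library of 0d (1.002) or of 2d (1.01), or with no filter on low values (1.04).

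Villins bundle filaments and can cut them. Of 13 genes 11 were tested, and none was called higher at 2d, 6d or 20d in edgeR or DESeq2. At an unadjusted p below 0.05 with no limit on size 1, 2 and 4 were higher. At these times 2, 4 and 2 were called lower (18.2%, 36.4% and 18.2%), beside 18.1%, 21.6% and 24.5% of all tested genes. Of all tested genes 13.1%, 16.8% and 19.5% were called higher. Villin-2 (PH02Gene21045), the most abundant, had 46.3 ± 1.46, 22.5 ± 0.581, 36.0 ± 2.00 and 25.6 ± 1.63 FPKM and no called change by TMM (-0.79, -0.19 and -0.54). The call at 2d depended on the scaling: the gene was called lower by total count (-1.04) and quantile scaling (-1.09) and in limma on log2(FPKM + 1) (-1.01). A villin-3-like gene (PH02Gene31016) had 41.4, 41.9, 38.9 and 41.4 FPKM at 0d, 22.1, 23.8, 23.6 and 22.2 FPKM at 2d, 14.1, 13.3, 13.3 and 12.3 FPKM at 6d, and 6.07, 6.44, 5.98 and 6.95 FPKM at 20d. Its libraries stepped down at each time without overlap, to -1.45 at 6d and -2.37 at 20d (SE 0.05, edgeR adjusted p = 5.68e-24). A villin-1-like gene (PH02Gene30096) had 9.26 ± 0.424, 2.62 ± 0.0857, 1.498 ± 0.153 and 0.66 ± 0.1 FPKM (2d -1.57, 6d -2.45, 20d -3.49, all called).

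Actin-related proteins include the ARP2/3 complex, which starts branches on existing filaments. Of 17 genes 14 were tested, and 3 were called by the F test (21.4%, beside 64.6% of all tested genes). At 2d 1 fell, at 6d 2 and at 20d 2, with none called higher in edgeR or DESeq2. At an unadjusted p below 0.05 with no limit on size, 7, 7 and 6 were higher. The largest of these log2 changes were 0.76, 0.87 and 0.61, below the limit on size. Lower calls made up 7.14%, 14.3% and 14.3% of the 14, beside 18.1%, 21.6% and 24.5% of all tested genes. Of all tested genes 13.1%, 16.8% and 19.5% were called higher. The sum was 228 ± 3.63 FPKM at 0d and 190.1 ± 2.32 at 20d. On the TMM scale it stood at 112%, 105% and 104% of 0d at the stored times, so its direction turns with the scale. ARP3 (PH02Gene48268) had 50.7, 51.4, 50.5 and 49.7 FPKM at 0d, 42.4, 43.6, 43.8 and 42.8 FPKM at 2d, 29.4, 30.1, 28.4 and 29.6 FPKM at 6d, and 43.7, 44.4, 44.1 and 41.0 FPKM at 20d. The libraries of 6d were the lowest and the other stored ones lay below 0d, but no change was called, and by TMM the values at 2d and 20d turned upward (0.02, -0.61 and 0.09). Subunit 4 of the complex (PH02Gene08865) fell from 34.0 ± 1.30 FPKM to 15.0 ± 1.14 at 6d (-1.01) and 13.4 ± 0.475 at 20d (-1.03). Both calls lay at the limit: with no filter on low values they were -0.94 and -0.98, and at 6d leaving out the second or the third library of 0d (-0.99 without the second) or the first or the third of 6d (-0.96 and -0.99) ended the call. A second subunit 4 gene (PH02Gene08372) had 16.7 ± 2.30 and 20.5 ± 1.08 FPKM, with 0.47 at 6d, and was named for comparison after its values were seen.

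The other genes whose description starts with actin were 5, with 3 tested. Actin-interacting protein 1-2 (PH02Gene13221), of a family that speeds the action of ADF, fell from 8.44 ± 0.649 FPKM at 0d to 3.33 ± 0.323, 2.63 ± 0.279 and 1.60 ± 0.124 (20d log2 change -2.08, SE 0.10, edgeR adjusted p = 4.53e-16). A gene named for pan1 (PH02Gene19709), an endocytosis protein of yeast, had 53.0 ± 1.001 FPKM at 0d and 22.4 ± 0.57 at 20d and was not called (20d -0.93). It was called lower by total-count (-1.25) and quantile scaling (-1.38), with the stricter filter (-1.06) and in both limma fits (-1.205 and -1.08). Chromatin proteins such as actin-related proteins 4, 5 and 7 also match the description rule. Without these and the kinase, the pan1 genes and a gene named for the animal protein futsch, 8 genes in all and 6 of them tested, 37 microtubule and 25 actin genes were called at 20d against 0d.

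Between 2d and 6d, 6 microtubule genes rose and 9 fell (median 0.12), while 5 actin genes rose and 1 fell (median 0.04), beside a background of 15.1% called, 6.94% higher and 8.14% lower. Among the microtubule genes that fell 4 were beta-tubulins. Between 6d and 20d 6 microtubule genes rose and 16 fell (median -0.49), and 7 actin genes rose and 7 fell (median 0.07), beside a background of 26.9% called, 12.7% higher and 14.2% lower. The 16 included 7 beta-tubulins of 15. AIR9 PH02Gene08268 (-1.04) and villin-1-like PH02Gene30096 (-1.04) were also called then, but not by quantile scaling (-0.98 and -0.94), nor for the former without the first library of 6d (-0.99) and for the latter without the second of 20d (-0.97) or the fourth of 6d (-0.97).

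Other cytoskeletal genes were taken by their descriptions. Their counts stand beside the shares of all tested genes, 13.1% higher and 18.1% lower at 2d. These shares were 16.8% and 21.6% at 6d, and 19.5% and 24.5% at 20d. Whether a list differs from them was not tested. Of 57 tested kinesins, the motors of microtubules, 13 rose and 11 fell at 2d, 8 and 15 at 6d, and 7 and 20 at 20d. Of 18 tested myosins, the motors of actin, 3 rose and 3 fell at 2d, 3 and 2 at 6d, and 4 and 2 at 20d. Of 10 tested subunits of katanin, which cuts microtubules, 1 rose and 4 fell at 20d. Of 30 other tested microtubule proteins 3 rose and 10 fell at 20d, and of 28 other tested actin proteins 4 rose and 8 fell. Of 5 tested cellulose synthase A genes, whose products move along cortical microtubules, 2 rose and 2 fell at 20d. A further 10 actin genes lay outside the description rule, since their text opens with another word. Of their 8 tested genes 3 fell at 2d, and 1 rose and 1 fell at 20d.

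Markers of cell types moved with time too. The summed level of 49 genes for mitotic cyclins and B-type kinases was 90.9 to 97.7 FPKM in the libraries of 0d, 114 to 122 at 2d, 129 to 137 at 6d and 71.3 to 74.6 at 20d, with 19 of the 49 at 0 in all libraries of each time. The 17 mesophyll genes, chlorophyll-binding proteins and the small subunit of Rubisco, went from 304 to 319 FPKM at 0d to 14.3 to 15.4 at 2d, 15.1 to 17.9 at 6d and 1.74 to 2.61 at 20d, with 3 at 0. The 19 meristem genes (knotted type) lay between 386 and 472 FPKM, with 2 at 0, and the 7 genes of guard cells and epidermis between 49.3 and 75.3, with none at 0. The 25 pollen-named genes went from 187 to 198 FPKM at 0d to 99.7 to 106 at 20d, with 6 at 0. Sums and medians of a list can part. At 20d against 0d the median log2 change was -0.33 for 13 tested cyclin and kinase genes and -9.27 for 9 mesophyll genes. It was 0.003 for 16 meristem genes, -1.1 for 7 of guard cells and epidermis and 0.16 for 12 pollen-named genes. At 6d that of the meristem genes was -0.38, though their sum lay above that of 0d. The 7 secondary-wall genes never summed to more than 2.73 FPKM, and the phloem pattern matched 0 genes. The part of these cell types in the changes above was not tested.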

How the data were processed

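RNA-seq of 16 pooled libraries was analysed from 1 deposited table. Per the file headers it holds FPKM, in which the authors wrote 0 as 0.0001 (set back to 0 here), and the authors' counts, deposited as whole estimated counts and not normalised. The most frequent count above 0 was 4, and 35.2% of counts from 1 to 19 were multiples of 4. A fragment may thus add about 4 counts, but most low counts were not multiples of 4. The aligner, counting tool, build and strand setting were not given in the sources used here. Positions are those of the deposited table. Depth is 51711694 to 64859188 counts per library.

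All 24944 genes averaging 1 FPKM or more were fitted in edgeR 4.0.16 (R 4.3.3; TMM, robust quasi-likelihood, 4 groups) and p-values were adjusted by Benjamini-Hochberg over all of them. Genes were called at adjusted p below 0.05 and a log2 change of at least 1, and in the F test by the largest difference between any 2 times. SE is the log2 change divided by the square root of F. Scripts were tested on simulated data. Replicates of a time correlated at 0.991 to 0.993 (Pearson, log2 scale over genes). Taking 4 counts per fragment, their median squared difference was 1.142 to 1.585 times that of sampling noise. On that assumption the spread between replicates was above sampling noise in every pair, but by little. With fewer counts per fragment the ratio would be larger.

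Alternatives were DESeq2 1.42.0, limma 3.58.1 on log2(FPKM + 1) and log2(FPKM + 5), other scalings, filters and limits, counts divided by 4, the replicate number as a block, each library left out and 8 strays left out. Quantile scaling was added after the data were seen. Members and lists were chosen with earlier results of these data known. List patterns were narrowed, and 2 genes described only as tubulin were placed by KEGG entry, after descriptions were seen. No gene sequences were used.

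Genes named are, in each role, the most abundant and the called ones of mean FPKM of at least 2 with the largest rise and fall at each time, in each family the 3 with the smallest adjusted p at each time, and for successive times the 2 largest rises and falls of mean FPKM of at least 5. Others are said to be chosen after their values were seen.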

Additional observations from a re-analysis of the deposited data

Results flagged for a closer look

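Among the 228 sets of 4 libraries formed by the 57 named genes at 4 times, 10 held a library that stood apart from the other 3 by Dixon's test, that is, whose gap to its nearest neighbour took up most of the whole range. Chance gives about 1 in 20. At 0d these were beta-4 tubulin PH02Gene37926 (83.3 FPKM in the fourth library, the highest), beta-4 tubulin PH02Gene41615 (4.88 in the second, the highest), MAP70-1 PH02Gene43296 (58.2 in the first, the lowest), ADF4 PH02Gene06080 (477.5 in the fourth, the highest) and villin-3-like PH02Gene31016 (38.9 in the third, the lowest). At 2d they were MAP65-7 PH02Gene22090 (53.1 in the first, the highest), the RP/EB gene PH02Gene00506 (2.76 in the first, the highest) and actin PH02Gene38192 (24.5 in the second, the highest). At 6d the ligase-like PH02Gene42399 stood at 2.28 in the fourth library, the lowest, and at 20d profilin-A PH02Gene41089 at 2.58 in the second, the highest. In these genes no call was lost when that library was left out.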

How the results depend on the processing

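No called change of a named gene turned direction under any of the 29 alternatives. Small changes that were not called did, such as those of PH02Gene06080, PH02Gene05986, PH02Gene48268 and PH02Gene25552 at 20d by total count (-0.13, -0.10, -0.23 and -0.05). For the counts of called genes, given as microtubule and actin, the 16 fits without a library ranged over 27 to 29 and 28 to 29 at 2d (against 0d), 28 to 29 and 29 to 30 at 6d, 38 to 39 and 26 to 27 at 20d, 13 to 17 and 6 to 8 for 6d against 2d, 21 to 22 and 13 to 18 for 20d against 6d, and 46 to 47 and 42 to 43 in the F test. Limma on log2(FPKM + 1) shrinks changes of low genes and also keeps the library-total scale of FPKM, without TMM. Its median log2 change over all genes was -0.22 at 2d, -0.17 at 6d and -0.25 at 20d. With it 8 microtubule and 1 actin gene were called for 6d against 2d and 6 actin genes for 20d against 6d. With log2(FPKM + 5) the counts were 9 and 14 at 2d, 15 and 14 at 6d, 20 microtubule genes at 20d, 1 and 1 for 6d against 2d, 6 and 1 for 20d against 6d, and 25 and 27 in the F test. A mean of at least 5 FPKM tested fewer genes and gave 15 and 10, 15 and 14, 24 and 15, 9 and 2, 13 and 3, and 26 and 22, in the order of the ranges above. No filter gave 12 actin genes for 6d against 2d and 23 for 20d against 6d. With no limit on size the counts were 59 and 65, 54 and 64, 59 and 61, 56 and 54, 48 and 56, and 71 actin genes in the F test. A 1.5-fold limit gave 49 actin genes at 6d, 29 and 25 for 6d against 2d, and 36 and 30 for 20d against 6d.

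Of the 146 calls on named genes, 30 were lost with limma on log2(FPKM + 1), 73 with log2(FPKM + 5), 9 by total-count and 4 by quantile scaling, 4 with no filter and 2 with the stricter one. Those lost against 0d with log2(FPKM + 1) were PH02Gene27598 (0.66), PH02Gene37852 (0.94), PH02Gene19738 (0.97) and PH02Gene18342 (0.77) at 2d, PH02Gene34993 (0.78), PH02Gene19738 (0.88), PH02Gene18342 (0.99) and PH02Gene46045 (0.75) at 6d, and PH02Gene34993 (-0.92), PH02Gene30137 (0.95), PH02Gene09629 (0.95), PH02Gene19738 (0.61), PH02Gene13061 (0.76) and PH02Gene36050 (0.75) at 20d. The share of upward calls over all genes was 43.7% (TMM), 33.6% (total count) and 51.4% (quantile) at 6d, and 44.3%, 31% and 51.2% at 20d. With the replicate block 28 microtubule and 28 actin genes were called at 2d, and no call on a named gene was lost. Same-numbered libraries showed no sign of deviating together: 24 correlations lay between -0.0441 and 0.0668, and 3 of 16 libraries were closest to their own number. Sampling noise could hide a weak pairing, so the check cannot show that the numbers do not pair the samples. Genes below 1 FPKM were tested only with no filter on low values.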
